A study of Mus musculus with 6 samples.

Results

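The genes described here build and run the transport system of the primary cilium. They are 38 genes of intraflagellar transport (IFT), the BBSome, the ciliary motors, the transition zone and the delivery of lipid-modified cargo, chosen by symbol and all found among the 30042 genes of the table. Messenger RNA was sequenced from whole retinas of wild-type mice of strain 129/Sv; C57/BL6J taken before birth at embryonic day 16.5 (E16.5) and after it on days 1, 3, 7, 14 and 28 (written P1, P3, P7, P14 and P28), 1 library per age. The series title concerns cone photoreceptors in mice without type 3 or type 2 deiodinase, but every library analysed here is wild type, and the labels give neither the sex nor the number of mice per library. Values are RPKM, reads scaled by gene length and by library size, so that levels of different genes can be set side by side per length, as far as the unstated gene models allow.

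A photoreceptor carries its light-sensing outer segment on a modified primary cilium, and all the protein of that segment passes through a narrow connecting cilium. IFT trains move along its microtubules, carried outward by kinesin-2 and back by dynein-2. The BBSome is a coat-like complex that rides on the trains and carries membrane proteins out of the cilium. The transition zone is the gate at the base, and in photoreceptors it is stretched out as the connecting cilium. Loss of many of these genes causes retinal degeneration, often with disease of the kidney and other organs. Other retinal cells, progenitors among them, also carry primary cilia.

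The retinal identity of the libraries was checked with marker lists. All 10 rod photoreceptor markers rose with age, with a summed level of 57.8 RPKM at E16.5 and 9378 at P28, and 8 of 9 markers of progenitors and cycling cells fell, from a sum of 1322 to 107. Of 8 ganglion cell markers 5 fell and 1 rose, with sums from 175 to 1101. Lens markers summed to 44.9 RPKM in the E16.5 library, 20.3 at P1, at most 2.46 from P3 to P14, and 30.9 at P28, blood markers to 207 at E16.5 and between 2.76 and 19.4 at the other ages, and pigment epithelium markers to between 3.08 and 21.0. The lens genes Cryaa and Crygs were listed at 0 in at least 1 library. In whole tissue, fewer cells of a type and less RNA per cell cannot be told apart, and the part of these shifts in cell content in the results below was not tested.

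With 1 library per age, pairs of ages could not be tested. The test asked whether log2(RPKM + 1) followed a straight line over age order, with limma and Benjamini-Hochberg adjustment over the 15272 genes that reached 1 RPKM at some age. Of the 38 genes 37 were tested, and only Kif17 stayed below 1 RPKM. Of these 37 genes 14 rose, 2 fell and 21 did not pass, beside 15.2% of all tested genes that rose and 29.9% that fell. The median slope was 0.15 log2 units per age step over the 37 genes and -0.06 over all tested genes. All p-values rest on how far the 6 libraries scatter from a fitted line, since no age has a second retina sample. That scatter is the gene's own, combined by limma with the scatter of the other tested genes. Library titles have 1 form for E16.5, P1 and P28 and another for P3, P7 and P14. Estimated depth was 12746427 to 14463167 reads in the first set and 23384264 to 28795938 in the second. The steps from P1 to P3 and from P14 to P28 cross between the sets. Lens marker sums also split by set. They were 44.9, 20.3 and 30.9 RPKM at E16.5, P1 and P28, and 1.5, 1.7 and 2.5 at P3, P7 and P14. Sums of blood and pigment epithelium markers did not split in this way.

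**Figure D1:**
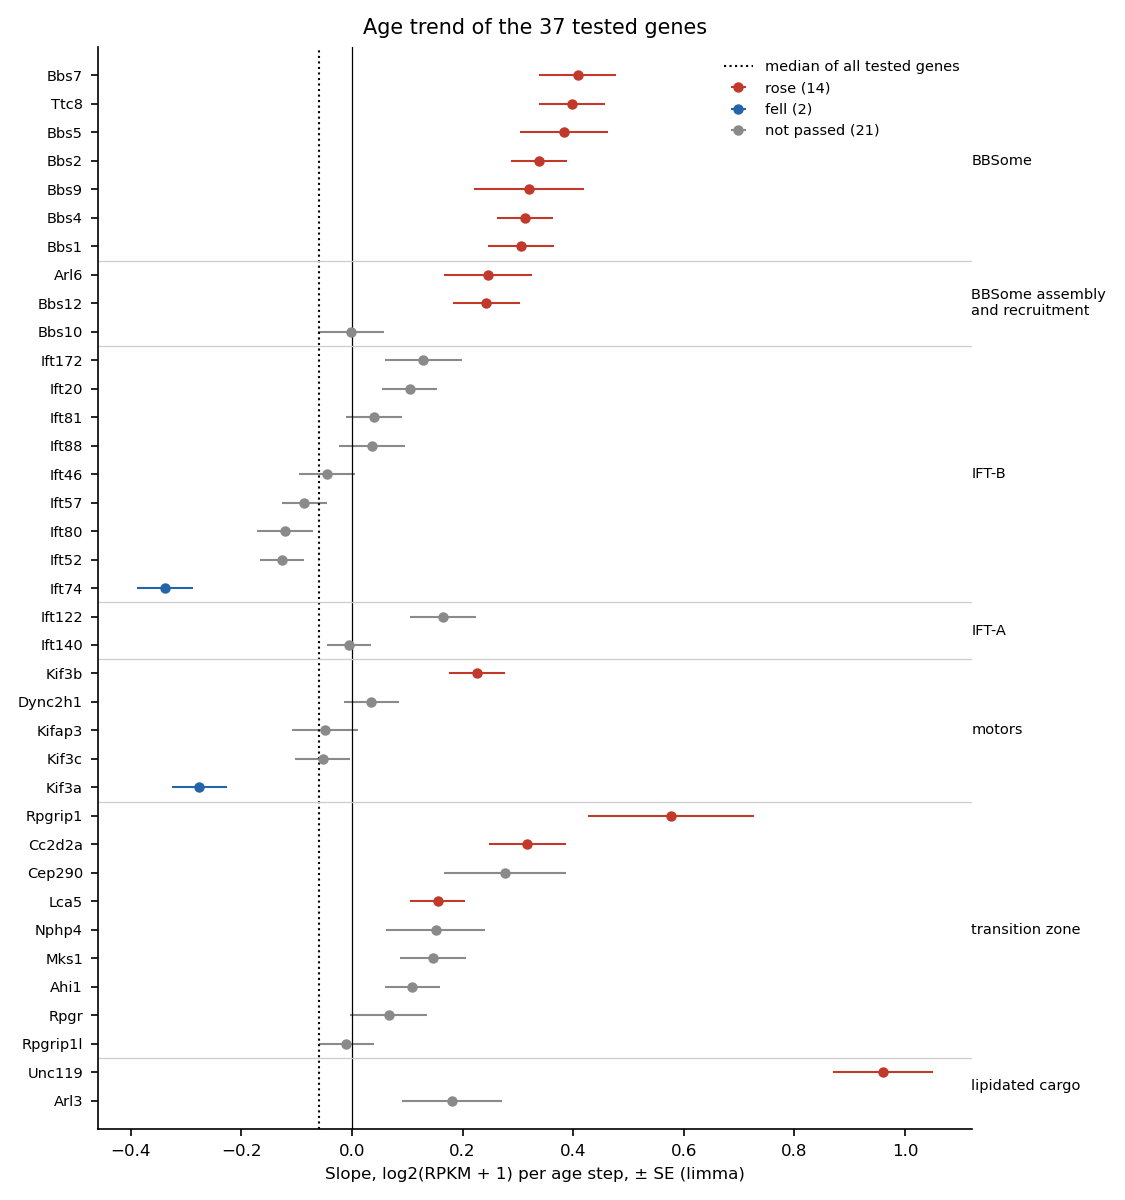
Slope of log2(RPKM + 1) per age step for the 37 tested genes, grouped by role, with bars for the standard error of limma's fit and a dotted line at the median of all tested genes (-0.06). The 7 BBSome genes lie between 0.31 and 0.41, the 11 IFT genes between -0.34 and 0.16, and Unc119 is farthest to the right at 0.96.

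Of the BBSome, the 7 subunits in the set rose. All 7 passed the test upward and 0 fell (0 at an unadjusted p under 0.05). Over all tested genes 15.2% rose and 29.9% fell. Slopes of the 7 lay between 0.31 and 0.41, with a median of 0.34 log2 units per step. In order of age from E16.5 to P28, the summed level of these 7 was 25.6, 30.45, 41.6, 78.7, 97.6 and 79.5 RPKM. The highest of the 7 was 2.70 times the lowest at E16.5 and 1.92 times the lowest at P14. Bbip1, a small further subunit that is not in the set and is named here after its values were seen, was at 8.98, 11.9, 10.8, 11.4, 8.70 and 9.87 RPKM and did not pass (slope -0.02 ± 0.05, adjusted p = 0.817).

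Bbs7, one of the beta-propeller subunits, had the steepest slope of the 7 (0.41 ± 0.07, SE, adjusted p = 0.00341). Its 6 libraries gave 2.05, 3.07, 4.06, 8.54, 11.3 and 9.02 RPKM. The P14 level was 5.53 times the E16.5 level, with a 95% counting interval of 4.75 to 6.48. Ttc8, also called Bbs8 and built of tetratricopeptide repeats, was at 5.10, 5.38, 7.84, 14.9, 19.8 and 17.4 RPKM from E16.5 to P28 (slope 0.40 ± 0.06, adjusted p = 0.00317). Among the 7, Ttc8 had the highest level from P7 on and Bbs1 before.

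Bbs1, which contacts the small GTPase Arl6, was at 5.53, 6.17, 8.01, 14.4, 17.1 and 13.8 RPKM in the same order (slope 0.31 ± 0.06, adjusted p = 0.00754). Bbs2, a propeller subunit that pairs with Bbs7, was at 4.26, 5.97, 6.78, 11.4, 15.3 and 13.9 RPKM (slope 0.34 ± 0.05, adjusted p = 0.00294). Bbs4, a repeat protein, was at 3.31, 3.38, 5.01, 7.81, 10.3 and 9.31 RPKM (slope 0.31 ± 0.05, adjusted p = 0.00376). The exons of Bbs4 overlap those of Adpgk on the opposite strand, listed at 2.43 to 3.45 RPKM. In these 3 genes each age up to P14 lay above the one before it, and P28 lay below P14.

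Bbs5, a subunit that binds phosphoinositides, stayed low until P3 and then stepped up. Its levels were 2.59, 2.81, 3.48, 9.17, 11.3 and 8.66 RPKM (slope 0.38 ± 0.08, adjusted p = 0.00724), and P7 was 2.63 times P3 (95% counting interval 2.24 to 3.10). Bbs9, the scaffold at the centre of the complex, was at 2.78, 3.67, 6.39, 12.5, 12.5 and 7.39 RPKM (slope 0.32 ± 0.10, adjusted p = 0.0312). Bbs9 had the largest late drop of the 7, to 0.593 times its P14 value at P28. The call was lost when E16.5 (adjusted p = 0.177), P1 (0.0913) or P14 (0.0924) was left out, when low genes were kept (0.0552) and when log2 days replaced age order (0.118), whereas the other 6 subunits passed under all 13 alternatives, with adjusted p up to 0.0358.

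The genes that assemble and place the BBSome followed it in part. Bbs12, a chaperonin-like protein of the assembly complex, was at 5.19, 5.83, 5.17, 9.13, 11.9 and 11.5 RPKM (slope 0.24 ± 0.06, adjusted p = 0.0106), and its exons overlap those of Cetn4 on the opposite strand, listed at 0.297 to 1.44 RPKM. Bbs10, its relative in the same complex, was at 2.92, 3.62, 2.64, 2.03, 3.02 and 3.36 RPKM and did not pass (adjusted p = 0.975), with its lowest value at P7. The level of Bbs12 was 1.78 times that of Bbs10 at E16.5 and 4.50 times at P7. Arl6, the GTPase that recruits the BBSome to membranes, was at 7.61, 10.2, 10.6, 23.0, 20.4 and 15.6 RPKM (slope 0.25 ± 0.08, adjusted p = 0.0382). Its call was lost without E16.5 (0.186), P1 (0.0897), P3 (0.0558) or P14 (0.108), with low genes kept (0.0587) and on a scale of log2 days (0.111).

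**Figure D2:**
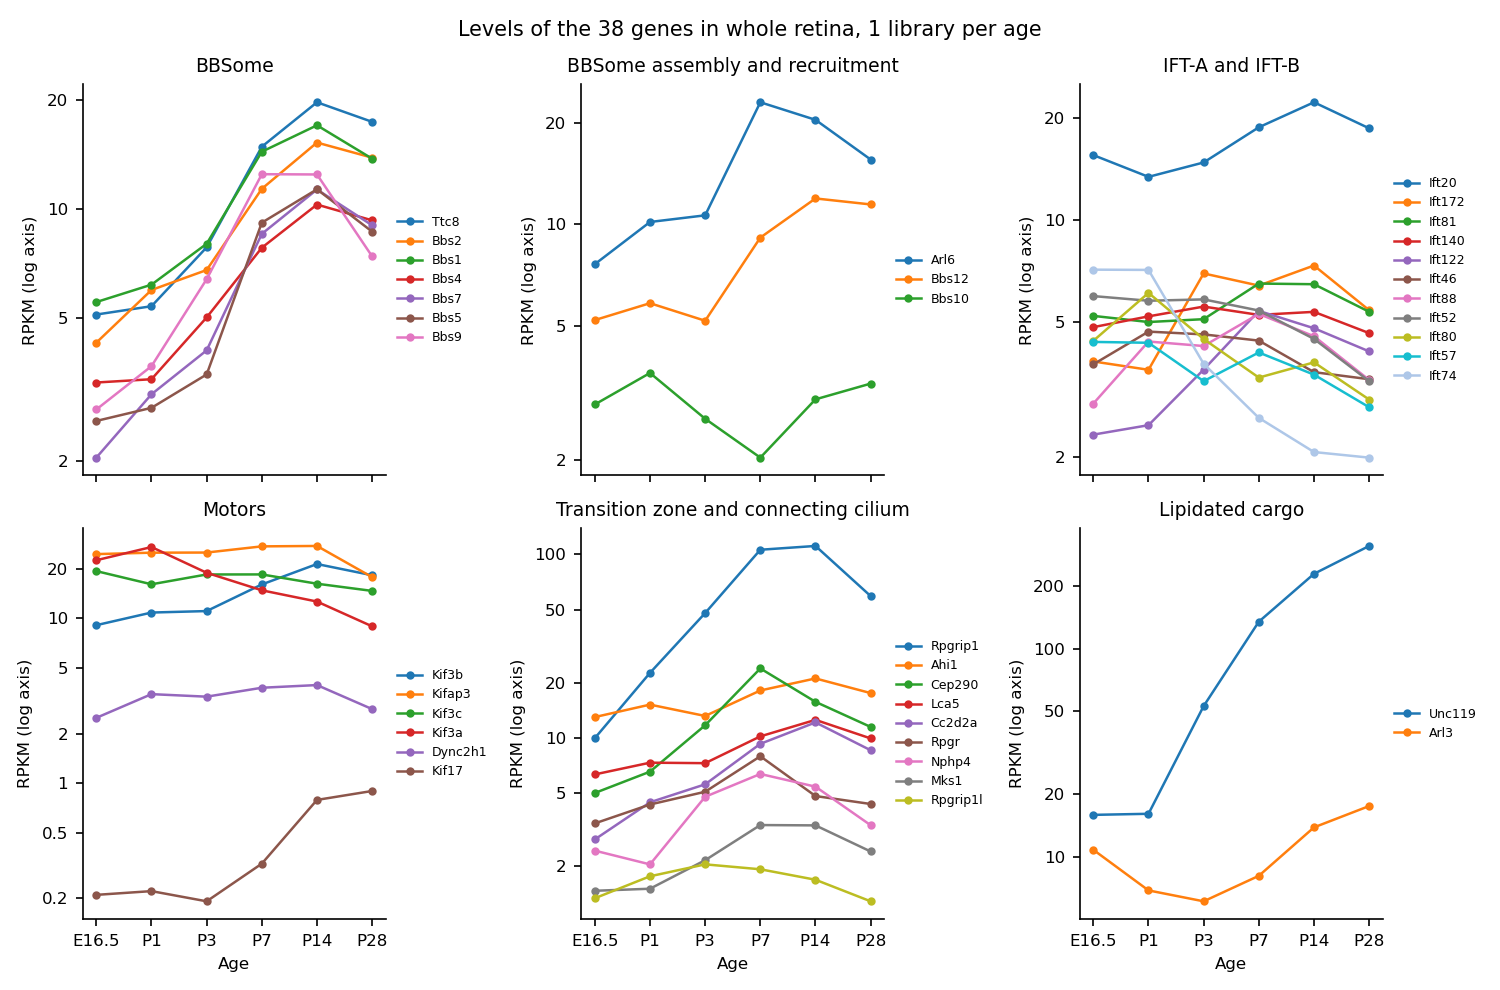
RPKM on a log axis at each age for the 38 genes in panels by role, 1 library per point. The BBSome panel climbs together from between 2.05 and 5.53 RPKM at E16.5 to between 10.3 and 19.8 at P14, whereas in the IFT panel Ift74 falls to 1.99 RPKM at P28 and Ift20 stays highest throughout.

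Many ciliary genes carry an X-box, the binding motif of regulatory factor X (RFX) proteins, near their start. The X-box was searched on both strands of RefSeq promoters (GRCm38), each from 250 bases before to 50 after a gene's start. A promoter was at hand for 35 of the 38 genes. A match was found in 7 of the 35, beside 673 of 27025 genes in all (2.49%). Of the 7, 3 are BBSome genes, and the windows are shown to let the matches be compared, with the match in capitals (in Ift57 and Bbs1 it reads on the other strand):
Bbs1, chr19:4906605-4906634, minus strand: ctgagctgGTTGCCAAGGCGACgcctggga
Bbs4, chr9:59353464-59353493, minus strand: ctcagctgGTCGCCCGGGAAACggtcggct
Bbs7, chr3:36613489-36613518, minus strand: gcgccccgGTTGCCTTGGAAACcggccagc
Ahi1, chr10:20952560-20952589, plus strand: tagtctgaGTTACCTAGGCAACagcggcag
Mks1, chr11:87853183-87853212, plus strand: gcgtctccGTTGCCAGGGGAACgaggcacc
Nphp4, chr4:152477903-152477932, plus strand: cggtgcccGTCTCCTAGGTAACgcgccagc
Ift57, chr16:49699199-49699228, plus strand: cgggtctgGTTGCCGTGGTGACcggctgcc
Of these 7 genes the 3 BBSome genes rose, and Ahi1, Mks1, Nphp4 and Ift57 did not pass the test, with slopes of 0.11, 0.15, 0.15 and -0.09. The other BBSome genes in the set, Bbs2, Bbs5, Bbs9 and Ttc8, had a promoter without a match and rose as well. A match is a run of letters and does not show that the site is bound. The starts used for Nphp4, Ahi1, Mks1, Bbs1 and Bbs7 lie inside the RefSeq genes, farthest in Nphp4, whose gene begins at base 152476706.

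The 250 bases before the start that RefSeq's promoter table gives for Bbs7, the steepest of the BBSome genes, are given as an example of such a promoter (chr3:36613390-36613639, minus strand), with the X-box in capitals. The RefSeq gene itself reaches further upstream, to base 36613492, which lies within this window:
Bbs7: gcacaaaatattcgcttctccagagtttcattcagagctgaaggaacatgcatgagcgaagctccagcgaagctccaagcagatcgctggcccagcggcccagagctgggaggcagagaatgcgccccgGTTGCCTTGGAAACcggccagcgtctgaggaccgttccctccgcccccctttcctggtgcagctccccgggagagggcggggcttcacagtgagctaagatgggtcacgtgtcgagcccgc

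Of the 11 IFT genes in the set 0 rose, 1 fell and 10 did not pass, where limma at an unadjusted p under 0.05 gave 1 that rose and 3 that fell. Of all tested genes 15.2% rose and 29.9% fell. The summed level of the 11 IFT genes was 60.1 RPKM at E16.5, 68.0 at P14 and 55.9 at P28. Ift20 alone held 15.5, 22.2 and 18.6 RPKM of these sums. Against E16.5 the IFT sum was 1.13 times at P14 and 0.93 times at P28, with 5 and 6 of the 11 genes lower. The sum of the 7 BBSome subunits was 3.81 times its E16.5 level at P14 and 3.1 times at P28. The count of IFT genes that rose was 3 with median-of-ratios rescaling (Ift20, Ift122 and Ift172), 2 with a common total without the 50 highest genes (Ift20 and Ift122), 2 without P28 (Ift122 and Ift172) and 1 with a pseudocount of 0.1 (Ift122).

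Ift74, which forms a dimer with Ift81 that binds tubulin, was the IFT gene that fell. From the earliest age to the latest its level was 7.12, 7.11, 3.76, 2.60, 2.06 and 1.99 RPKM (slope -0.34 ± 0.05, adjusted p = 0.00315). The P28 value was 0.279 times the E16.5 value (95% counting interval 0.230 to 0.336), and the largest part of the fall lay between P1 and P3. These 2 libraries also differ in the form of title, in depth and in lens marker sums (20.3 and 1.5 RPKM). None of these differences can be told apart from age at this step. Its partner Ift81 was at 5.20, 4.99, 5.09, 6.48, 6.45 and 5.35 RPKM and did not pass (slope 0.04 ± 0.05, adjusted p = 0.491). The ratio of Ift74 to Ift81 was 1.37, 1.42, 0.738, 0.401, 0.320 and 0.371 over the ages. The annotation (GENCODE, GRCm38) shows no other gene with an exon over those of Ift74 or Ift81.

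Among the other core subunits of IFT-B, the complex of outward trains, Ift52 was at 5.95 RPKM at E16.5 and 3.34 at P28 (adjusted p = 0.0506), and it passed downward with a pseudocount of 0.1 (0.0492), on a scale of log2 days (0.0377) and when the form of the library title was a covariate (0.0246). Ift88, whose loss gives polycystic kidneys in mice, was at 2.87 RPKM at E16.5, 5.27 at P7 and 3.37 at P28, and Ift46 was between 3.38 and 4.67 RPKM. Neither passed the test (adjusted p = 0.647 and 0.452). The peripheral subunits differed in direction. Ift172 had 3.82, 3.61, 6.94, 6.39, 7.32 and 5.41 RPKM (adjusted p = 0.142), while Ift57 and Ift80 had slopes of -0.09 and -0.12 (adjusted p = 0.141 and 0.0910). Without E16.5, Ift80 passed downward (0.0423).

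Ift20, an IFT-B subunit that also works at the Golgi, had the highest level of the 11 at each age, at 15.5, 13.4, 14.8, 18.7, 22.2 and 18.6 RPKM, and did not pass as deposited (slope 0.10 ± 0.05, adjusted p = 0.138). Of the IFT-A subunits, which serve return transport and the entry of membrane receptors, Ift122 had 2.32, 2.48, 3.61, 5.38, 4.78 and 4.09 RPKM in age order (slope 0.16 ± 0.06, adjusted p = 0.0512). Ift140 was between 4.63 and 5.54 RPKM at every age, the smallest fold range of the 38 genes.

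Of the subunits of kinesin-2, the motor of outward transport, Kif3a and Kif3b changed places. Kif3a, the motor subunit common to the heterotrimer, was at 22.5, 27.1, 18.9, 14.8, 12.6 and 8.95 RPKM in age order and fell (slope -0.28 ± 0.05, adjusted p = 0.00605). Kif3b, its usual partner, was at 9.09, 10.8, 11.1, 16.1, 21.4 and 18.3 RPKM and rose (slope 0.23 ± 0.05, adjusted p = 0.0108). Both calls held under all 13 alternatives. The ratio of Kif3a to Kif3b was 2.48, 2.50, 1.71, 0.921, 0.592 and 0.490 over the same ages, a pair set side by side after its values were seen.

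Kif3c, the alternative partner of Kif3a in neurons, was between 14.7 and 19.3 RPKM (slope -0.05 ± 0.05, adjusted p = 0.378), and its exons overlap those of the opposite-strand gene 1110002L01Rik, listed at 10.9 to 15.3 RPKM. Whether reads were counted by strand is unknown. Kifap3, the cargo-binding subunit, was between 24.5 and 27.5 RPKM up to P14 and at 17.8 at P28 (adjusted p = 0.520). Dync2h1, the heavy chain of the return motor dynein-2, was between 2.49 and 3.94 RPKM (adjusted p = 0.608).

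**Figure D3:**
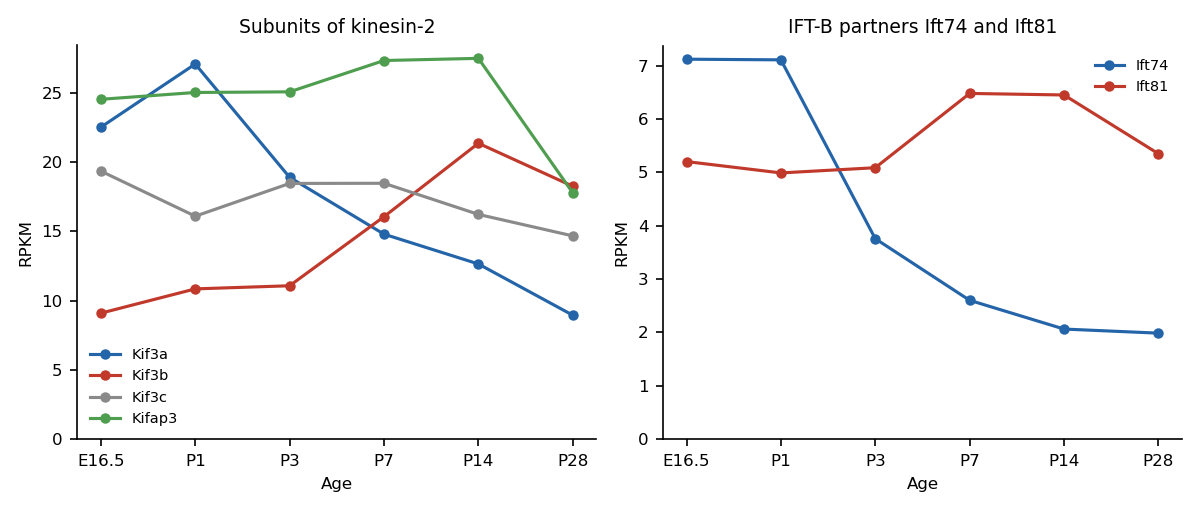
RPKM by age on linear axes from 0 for the 4 kinesin-2 subunits (left) and for the partners Ift74 and Ift81 (right), 1 library per point. The lines of Kif3a and Kif3b cross between P3 and P7, and those of Ift74 and Ift81 between P1 and P3.

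Kif17, a kinesin-2 that works as a dimer of its own, was the least abundant of the 38 genes. Its levels were 0.210, 0.221, 0.192, 0.325, 0.792 and 0.897 RPKM, which come to an estimated 14, 13, 21, 35, 105 and 53 reads. P14 was 2.44 times P7 (95% counting interval 1.65 to 3.68), and P28 was 4.27 times E16.5 (2.33 to 8.33). It was not tested as deposited, and without a filter on low values its slope was 0.14 ± 0.03 (limma adjusted p = 0.0219 over 24288 genes). Its exons overlap those of Sh2d5 on the same strand, which was listed at 2.61 RPKM at E16.5, 2.02 at P7 and 10.7 at P28, so that reads of the shared stretch are uncertain.

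Of the 9 genes of the transition zone and connecting cilium in the set, 3 rose and 0 fell (0 at an unadjusted p under 0.05), with a median slope of 0.15. The shares over all tested genes were 15.2% that rose and 29.9% that fell. Rpgrip1, the protein that anchors Rpgr in the connecting cilium, had the highest level of the 9 from P1 on, and Ahi1 at E16.5. Over the 6 ages it was at 9.97, 22.6, 47.9, 105.9, 111 and 59.2 RPKM (slope 0.58 ± 0.15, adjusted p = 0.0168). It was the only one of the 37 tested genes to gain at least 1 log2 unit in each of the first 3 steps, and its P28 value was 0.533 times that at P14. The trend was not called without E16.5 (adjusted p = 0.141), P1 (0.0538) or P14 (0.0543) or on a scale of log2 days (0.0786). Its exons overlap those of Supt16 on the opposite strand.

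Rpgr, the X-linked partner of Rpgrip1, was at 3.42, 4.34, 5.09, 7.94, 4.82 and 4.37 RPKM and did not pass (adjusted p = 0.473), and its exons overlap those of Srpx on the same strand, listed at 0.0476 to 1.47 RPKM. The level of Rpgrip1 was 2.91 times that of Rpgr at E16.5 and 23.0 times at P14. Rpgrip1l, a paralogue of Rpgrip1 that acts in the transition zone of many cell types, was at 1.34, 1.76, 2.05, 1.92, 1.69 and 1.29 RPKM (slope -0.01 ± 0.05, adjusted p = 0.890). Its highest value lay at P3 and its lowest at P28.

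Cep290, which links the microtubules of the transition zone to the membrane, peaked at P7. It was at 5.01, 6.55, 11.7, 23.9, 15.7 and 11.5 RPKM (slope 0.28 ± 0.11, adjusted p = 0.0752), and it passed upward without P7 (0.0340) or P28 (0.0174) and with either rescaling (0.0371 and 0.0413). Its exons overlap those of 4930430F08Rik on the opposite strand, listed at 1.67 to 4.67 RPKM. Nphp4, a partner of Rpgrip1 and Rpgrip1l, was at 2.43, 2.05, 4.78, 6.36, 5.42 and 3.35 RPKM (adjusted p = 0.204), and passed without P28 (0.0343).

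Cc2d2a, a membrane-linked protein of the gate, was at 2.80, 4.46, 5.59, 9.28, 12.1 and 8.57 RPKM and rose (slope 0.32 ± 0.07, adjusted p = 0.00857), though not without E16.5 (0.0599). Lca5, or lebercilin, an IFT-associated protein lost in a form of childhood blindness, was at 6.33, 7.33, 7.28, 10.2, 12.5 and 9.93 RPKM (slope 0.16 ± 0.05, adjusted p = 0.0402). Its call was lost in 7 of 13 alternatives, among them without E16.5 (0.124), P1 (0.0793), P3 (0.0638), P7 (0.0661) or P14 (0.126). Mks1 and Ahi1, which belong to the same gate complex as Cc2d2a, had slopes of 0.15 and 0.11 and did not pass (adjusted p = 0.0751 and 0.120). With median-of-ratios rescaling and with a common total both passed upward (Mks1 0.0292 and 0.0327, Ahi1 0.037 and 0.025), and Mks1 also without P28 (0.0239).

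Unc119 and Arl3, which serve the transport of lipid-modified proteins, had their highest value at P28. Unc119, which binds the acyl group of the rod transducin alpha subunit and carries it to the outer segment, had the steepest slope of the 37 genes. It was at 15.9, 16.1, 53.0, 134.7, 229 and 311 RPKM in age order (slope 0.96 ± 0.09, adjusted p = 0.00148), and P28 was 19.5 times E16.5. The call held under all 13 alternatives. Arl3, the GTPase that releases such cargo from Unc119, was at 10.8, 6.91, 6.13, 8.12, 13.9 and 17.6 RPKM (slope 0.18 ± 0.09, adjusted p = 0.134). Arl3 dipped between E16.5 and P3 before it regained its first level. It passed without E16.5 (slope 0.35, adjusted p = 0.0159) and with a common total (0.26, 0.0402), and without P28 its slope was 0.09 (0.574). The level of Unc119 was 1.47 times that of Arl3 at E16.5 and 17.7 times at P28.

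The genes with the 2 steepest slopes, Unc119 and Rpgrip1, were among 3 of the 35 genes (8.57%) with the letters TAATCC, the core of the site of the photoreceptor factor Crx, on either strand of a promoter, beside 8.14% of all genes. The third was Bbs1. Both starts used here are internal, since the RefSeq genes begin at base 78343495 (Unc119) and base 52104241 (Rpgrip1). The 250 bases before 1 of the 3 starts of Unc119 (chr11:78345334-78345583, plus strand) and before the start listed for Rpgrip1 (chr14:52110653-52110902, plus strand) are shown with the match, here read on the other strand, in capitals:
Unc119: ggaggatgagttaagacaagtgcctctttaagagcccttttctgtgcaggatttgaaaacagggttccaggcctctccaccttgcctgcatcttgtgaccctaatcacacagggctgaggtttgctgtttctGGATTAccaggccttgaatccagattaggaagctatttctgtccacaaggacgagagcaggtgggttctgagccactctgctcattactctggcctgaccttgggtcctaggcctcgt
Rpgrip1: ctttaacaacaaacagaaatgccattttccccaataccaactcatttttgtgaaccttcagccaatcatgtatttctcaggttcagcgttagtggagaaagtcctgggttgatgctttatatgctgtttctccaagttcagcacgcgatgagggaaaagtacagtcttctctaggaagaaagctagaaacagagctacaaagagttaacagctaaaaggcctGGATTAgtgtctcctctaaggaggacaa
The share of these genes with a match was close to that of all genes, and nothing about the binding of Crx was measured.

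The step from P3 to P7 had the most gains of at least 1 log2 unit and the largest median difference. Between these ages 28 of the 37 tested genes were higher, beside 45.4% of all tested genes, and the members' median difference was 0.43 log2 units against -0.04. The number that was higher by any amount was 28 at the step to P1 (49.3% of all tested genes), 25 at the step to P3 (49.5%), 21 at the step to P14 (34.0%) and 3 at the step to P28 (40.3%). A gain of at least 1 log2 unit was seen for Bbs5, Arl6, Rpgrip1 and Unc119 (4 of 37, beside 2.36% of all tested genes). The number was 1 at the step to P1 (Rpgrip1, beside 1.05%), 2 at the step to P3 (Rpgrip1 and Unc119, beside 1.94%), and 0 at the steps to P14 (2.92%) and P28 (1.19%). The number lower by at least 1 log2 unit was 0 at each step, beside 2.23%, 3.52%, 3.54%, 2.40% and 0.530% of all tested genes in order. These are values of single libraries, with no replicate check, and the steps to P3 and P28 also cross between the 2 forms of library title.

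Between P14 and P28, 34 of the 37 genes were lower, beside 59.5% of all tested genes. The median difference was -0.25 log2 units, against -0.06 over all tested genes. The P14 and P28 libraries also differ in the form of title and in estimated depth (28795938 and 12831350 reads). Their lens marker sums differ too, at 2.5 and 30.9 RPKM. None of these differences can be told apart from age at this step. The 11 IFT genes, 7 BBSome subunits and 9 transition zone genes in the set were all lower at P28, and Bbs10, Arl3 and Unc119 were higher. With median-of-ratios rescaling 31 of 37 were lower, beside 50.1% of all tested genes, and with a common total 34 of 37, beside 54.4%. The highest value lay at P14 for 16 of the 38 genes and at P7 for 9, while over all tested genes E16.5 was the commonest age of the highest value (28.5%) and P7 and P14 took 12.0% and 12.7%. Curvature over age was called for 0 of 37 genes and 0.00% of all tested genes (limma, quadratic coefficient), with 8 of the 37 and 2858 of all tested genes (18.7%) at an unadjusted p under 0.05. The quadratic coefficient was negative for 32 of the 37, beside 56.3% of all tested genes.

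**Figure D4:**
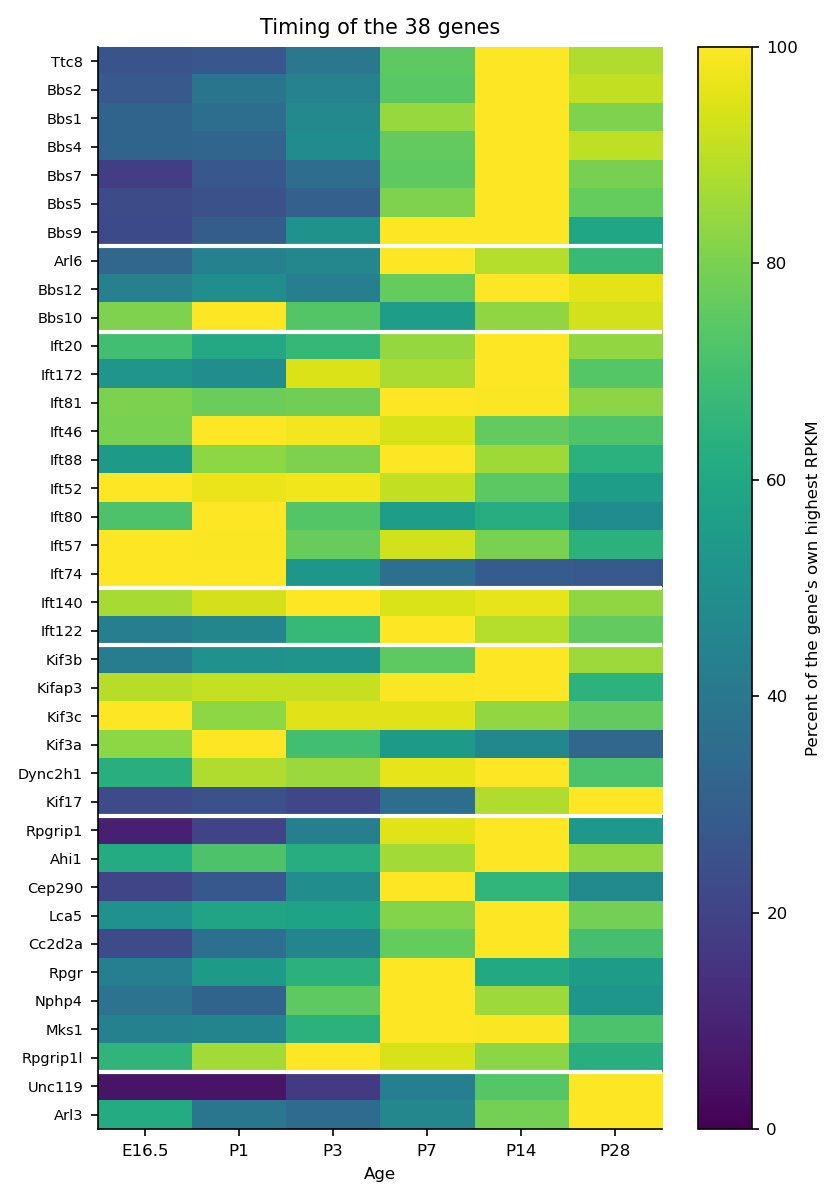
Level at each age as a percent of the gene's own highest RPKM, 1 row per gene, with white lines between roles. The BBSome rows are brightest at P14 (6 genes) or P7 (Bbs9), Ift74 and Kif3a are bright on the left, and Unc119 and Arl3 are brightest at P28.

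Other genes of the same machinery made up 6 lists. Among their 82 tested members the trend passed upward in 12, downward in 25 and in neither direction in 45, with a median slope of -0.02. These shares were close to those of all tested genes, of which 15.2% rose and 29.9% fell. Of 8 further IFT-B genes 1 rose (Ttc30b, slope 0.14) and 3 fell, steepest Traf3ip1 and Rabl5, both with a slope of -0.16. Of 11 genes of IFT-A and dynein-2, Wdr60 rose (0.21) and 3 fell, steepest the dynein light chains Dynlrb1 (-0.49) and Dynll1 (-0.36), which also serve other dyneins. Of 8 further BBSome genes and partners, Bbip1 among them, 0 rose (limma, 1 at an unadjusted p under 0.05) and 2 fell, the trafficking GTPases Rab11a (-0.28) and Rab8a (-0.20). Of 20 further transition zone genes 1 rose (Tctn2, 0.14) and 3 fell, steepest Tmem216 (-0.24) and 2700049A03Rik (-0.18).

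Of 8 other genes of lipidated cargo transport, Tulp1 (slope 0.84) and Arl13b (0.21) rose and Rp2h, the GTPase-activating protein of Arl3, fell (-0.17). The list of basal body and axoneme genes split most: of 27 genes 7 rose and 13 fell. Rp1, a microtubule-binding protein of the photoreceptor axoneme that is also 1 of the 10 rod markers, rose (slope 1.29), with 1.05 RPKM in the E16.5 library and 170 in the P14 library, and BC027072 from 0.787 to 66.5 at P28. Azi1, a protein of centriolar satellites, fell from 15.2 to 2.79 RPKM (-0.40) and the centriole gene Ccdc41 from 6.92 to 1.90 (-0.34). The count of 25 that fell was 15 without P1, 15 without P14, 12 without P28, 15 with median-of-ratios rescaling and 10 with a common total.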

How the data were processed

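The authors deposited 1 table of RPKM values per gene and age, per the file headers. Per the labels' protocols, messenger RNA was purified on beads from Trizol-extracted RNA and turned into double-stranded cDNA before fragmentation. The submitters' processing notes name bcl2fastq (2.17.1.14) and build mm9. That leaves the aligner, counter, gene models and strand, all not given in the sources used here. All 6 value columns were used. Where abundant genes take a larger share of a library, the RPKM of the others drops.

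The depth was estimated from the steps between low values and reference transcript lengths, at 12746427 (P1) to 28795938 (P14) reads, a rough estimate, since between 39.2% and 42.7% of low values came out whole. Whole reads within 0.05 were recovered for 26 of the 38 genes, with 13 the lowest count (Kif17). The gene lengths these reads imply were above the reference transcript, little in Bbs12 (2436 and 2433 bases) and much in Ift74 (5574 and 2139) or Bbs7 (6111 and 2687). Whether the counts are too high or the gene models longer was not tested, and with counts too high the intervals would be too narrow. Counting intervals are exact binomial, at 95%, and leave out all but counting error, because reads copied by PCR are not separate molecules.

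Slopes were fitted with limma 3.58.1 in R 4.3.3 (eBayes, trend=TRUE) on log2(RPKM + 1) over age order 1 to 6, two-sided, with 4 residual degrees of freedom (3 for the quadratic term), for genes with a highest value of at least 1 RPKM, at an adjusted p of 0.05. A pseudocount of 1 understates changes near 1 RPKM. The fitting steps were tested on simulated data, which is no check of the calls made on these libraries. Differences between ages have no test. The rule for named genes took all 38 members, the 2 steepest called genes in each direction of each further list, the highest motile cilium gene and all RFX genes. The members and lists were chosen with earlier results of these data known. Promoters are from RefSeq (GRCm38), matched by gene ID. Exon overlaps are from GENCODE M21. The table holds no coordinates, and none were converted between builds.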

Additional observations from a re-analysis of the deposited data

How the results depend on the processing

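No paired analysis was possible because each age has 1 library. The 16 called genes kept their sign under all 13 alternatives, and 11 of them kept their call under each of these. The 14 genes that rose became 20 under either rescaling, which moved the median of all tested genes by between -0.22 (E16.5) and 0.15 (P28) log2 units with a common total, and between 10 and 19 when 1 library was left out. The 2 that fell were between 2 and 3 under the alternatives. Over all tested genes, 2326 that rose and 4571 that fell became 3223 and 2686 with a common total and 3037 and 3406 with median-of-ratios rescaling, 1544 and 2945 without P14, and 1403 and 3559 with a highest value of at least 5 RPKM. The IFT genes that fell were 1 as deposited and 2 with a pseudocount of 0.1, with age in log2 days (birth set at day 19) and when the form of the library title was a covariate, and between 1 and 2 when 1 library was left out. Those that rose were 3 with median-of-ratios rescaling, 2 with a common total, 1 with a pseudocount of 0.1, and between 0 and 2 when 1 library was left out. Other ciliary genes that fell were 15 with median-of-ratios rescaling, 10 with a common total and between 12 (without P28) and 23 (without P3) when 1 library was left out. The cause of these shifts was not tested. Titles of the libraries have 2 forms, 1 for E16.5, P1 and P28 and 1 for P3, P7 and P14. In an alternative chosen after seeing the data, slopes of BBSome genes were between 0.22 and 0.34 within the first set and between 0.43 and 0.73 within the second, with 3 libraries in each and no test, and all 16 called genes had the same sign in both. The 16 were called on these same libraries, so that the shared sign is no independent check. Depth limits Kif17 most.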

Other observations

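RFX factors, which bind the X-box, were measured as 8 genes, of which 5 were tested. Rfx5 (slope 0.22) and Rfx1 (0.13) rose, and Rfx2 (-0.29), Rfx7 (-0.24) and Rfx3 (-0.17) fell (limma, adjusted p between 0.00783 and 0.0485). Rfx3, a factor of ciliary genes, had 4.67, 5.85 and 2.39 RPKM in the E16.5, P3 and P28 libraries, and Rfx2 had 3.41, 1.95 and 0.948. Rfx7 had the highest level of the family up to P7, with 12.5 RPKM at P1 and 4.79 at P28, and Rfx1 was highest at P14 and P28 (8.25 and 8.78). Rfx4, Rfx6 and Rfx8 stayed under 0.11 RPKM and were listed at 0 in at least 1 library.

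Genes of motile cilia, which retinal neurons do not carry, were a list of 23, of which 11 reached 1 RPKM. Of these 2 rose and 4 fell, beside 15.2% and 29.9% of all tested genes. The highest was Tppp3, a tubulin-binding protein not limited to cilia, at 22.9 RPKM at E16.5 and 17.8 at P28.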
